A study of Mus musculus with 8 samples.

Results

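Ctnna3, Cacna1a, Kcnma1, Ank, Prkg1, Adarb1, Xylt1, Mamdc2, Baiap2l2 and Tmem163 are 10 of the 32285 genes counted in single nuclei of the mouse brain. They were picked by name for higher levels in microglia of 5xFAD mice or in amyloid-DAM, the subpopulation of disease-associated microglia (DAM) that the study linked to amyloid. Differences of these genes between microglia with and without 5xFAD, and between amyloid-DAM and the other subpopulations, are therefore given as values without a test. What was tested is the effect of Cnp loss on them in amyloid-DAM and in homeostatic microglia, and the effect of 5xFAD on them in neurons, astrocytes and mature oligodendrocytes, none of which entered their choice.

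The nuclei came from hemispheres of the brain, from which olfactory bulb and cerebellum had been taken off, of 6-month-old C57BL6/J mice of the genotypes WT, Cnp-/-, 5xFAD and Cnp-/- 5xFAD, with 2 libraries per genotype. Cnp-/- mice lack CNP, an enzyme of the myelin that oligodendrocytes wrap around axons, in every cell. 5xFAD mice carry mutant human APP under the Thy1 promoter, which is active in neurons, so that their microglia meet amyloid made by other cells. By the general replication statement for single-cell work, each replicate pooled a pair of animals, while the methods text for these hemispheres does not mention pooling. A library is thus taken as 1 replicate that may average over animals, and p-values measure only the spread between libraries.

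DAM are microglia that lower homeostatic genes such as P2ry12 and raise genes for lipid handling and phagocytosis such as Trem2 and Lpl, around amyloid plaques and around damaged myelin. The study separated amyloid-DAM from myelin-DAM, homeostatic microglia, microglia rich in myelin transcripts (MyTE) and macrophages, and its annotation was used unchanged. The 10 genes do not form a known pathway. They encode an adhesion protein, a membrane-bending protein and a matrix protein, the pores of a calcium and a potassium channel, exporters of pyrophosphate and of zinc, a kinase, an RNA editing enzyme and a glycosyltransferase, and several are better known from neurons, muscle or oligodendrocyte precursor cells (OPC) than from microglia.

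The libraries held 6801 to 8824 nuclei and 68905044 to 82399061 unique molecular identifiers (UMIs) each. Of 61949 nuclei, 2291 were in the table of microglia and macrophages, with 70 to 492 per library. WT replicate 2 had the fewest. Cnp was counted at 219 to 321 UMIs per 1000000 UMIs in mature oligodendrocytes of the 4 libraries with the gene and at 23.1 to 32.8 in the 4 Cnp-/- and Cnp-/- 5xFAD libraries. Between libraries 454 cell barcodes were shared, on 909 nuclei of the table of all cells and on 0 nuclei of the microglia table.

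Amyloid-DAM held 184 and 127 nuclei in the 5xFAD libraries and 143 and 112 in the Cnp-/- 5xFAD libraries, 566 in all, with 144790 to 280351 UMIs per library. The other 20 amyloid-DAM nuclei lay in 3 libraries without 5xFAD, none of which held 20 nuclei, and were left out. Myelin-DAM held 83, 36, 67 and 49 nuclei in the Cnp-/- and Cnp-/- 5xFAD libraries, 235 in all, with 47149 to 102734 UMIs. A level below is the number of UMIs of a gene per 1000000 UMIs (CPM) of one subpopulation in one library, given for replicates 1 and 2 of each genotype. All 5 microglia markers (P2ry12, Cx3cr1, Tmem119, Csf1r and Inpp5d) had UMIs in both DAM subpopulations, with a summed level of 4110 to 4701 CPM in amyloid-DAM and 3366 to 4606 CPM in myelin-DAM. The 7 DAM markers in the table (Trem2, Lpl, Cst7, Itgax, Axl, Spp1 and Gpnmb) summed to 810 to 1050 CPM in amyloid-DAM, 1209 to 1367 CPM in myelin-DAM and 155 to 406 CPM in homeostatic microglia. Of the 7 neuron markers 6 had 0 UMIs in amyloid-DAM and the other had 3. The 5 astrocyte markers (Aqp4, Slc1a2, Slc1a3, Gja1 and Gfap) summed to 184 to 403 CPM in amyloid-DAM and 263 to 435 CPM in myelin-DAM, against 9521 CPM or more in astrocytes. All 5 had UMIs in amyloid-DAM. In myelin-DAM Aqp4, Gja1 and Gfap had 0 UMIs, so that sum came from Slc1a2 and Slc1a3 alone. The 3 endothelial markers summed to 179 to 278 CPM in amyloid-DAM and 337 to 549 CPM in myelin-DAM, against 6189 CPM or more in endothelial cells, and the part of either list in the differences between the DAM subpopulations was not tested.

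The genes are long. Their annotated span (GENCODE M21, GRCm38) had a median of 222 kb, against 34.1 kb over the genes tested in all microglia, and 6 of the 10 lay above the 90th percentile of those genes. Ctnna3 on chromosome 10 from 63430098 to 65003667 covered 1574 kb, Prkg1 on chromosome 19 from 30564489 to 31765033 covered 1201 kb and Kcnma1 on chromosome 14 from 23289431 to 24014491 covered 725 kb. The exception was Baiap2l2 on chromosome 15 from 79258195 to 79285537, whose 27.3 kb stood at the 42.1 percentile. UMI counts are not divided by gene length, so levels are not compared between genes here.

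RefSeq promoters (GRCm38.p6, 250 bases before to 50 bases after a transcript start) were found for 6 of the 10 genes, with 9 starts in all. Those of Ctnna3 and Tmem163 are shown because the levels of these genes went most closely together among the members, as described below, and because Ctnna3 has several starts. The first Ctnna3 start lies at chr10:63429848-63430147 on the plus strand, the third at chr10:63820805-63821104 on the plus strand, and the Tmem163 start at chr1:127677972-127678271 on the minus strand. Capitals mark a TATAAA.
Ctnna3, the first start: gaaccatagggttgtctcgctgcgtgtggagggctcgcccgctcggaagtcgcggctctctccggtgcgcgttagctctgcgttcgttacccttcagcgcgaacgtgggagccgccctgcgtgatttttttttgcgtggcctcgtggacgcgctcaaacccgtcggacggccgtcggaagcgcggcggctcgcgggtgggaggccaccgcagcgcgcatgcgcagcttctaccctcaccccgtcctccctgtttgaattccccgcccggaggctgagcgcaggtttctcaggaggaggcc
Ctnna3, the third start: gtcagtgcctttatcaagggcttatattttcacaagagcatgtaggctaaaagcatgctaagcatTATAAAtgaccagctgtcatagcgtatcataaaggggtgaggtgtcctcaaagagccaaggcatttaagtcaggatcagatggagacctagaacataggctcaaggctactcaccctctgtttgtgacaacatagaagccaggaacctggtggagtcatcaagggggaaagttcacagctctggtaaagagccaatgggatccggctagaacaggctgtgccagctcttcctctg
Tmem163: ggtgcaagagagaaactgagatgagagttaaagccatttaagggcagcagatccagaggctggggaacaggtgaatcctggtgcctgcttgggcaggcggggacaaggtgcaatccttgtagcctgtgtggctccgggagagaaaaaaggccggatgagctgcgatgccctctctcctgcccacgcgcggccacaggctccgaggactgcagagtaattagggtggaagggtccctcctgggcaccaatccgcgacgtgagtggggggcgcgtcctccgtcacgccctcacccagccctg
The first Ctnna3 promoter had 67% G and C and the Tmem163 promoter 61.7%, against a median of 52.7% over 32851 promoters, and the third Ctnna3 promoter had 47.3%. Its TATAAA lies 185 bases before the start. On either strand, TATAAA was found in 13.6% of all promoters, the PU.1 motif GAGGAAGT in 3.2%, the MITF and TFEB motif CACGTG in 7.15% and the AP-1 motif TGACTCA in 5.2%. The other 8 promoters of the members held none of these 4 motifs. The UMI tables count a gene as a whole and do not show which start was used.

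Against myelin-DAM, 6 of the 10 genes were higher in every amyloid-DAM library than in any myelin-DAM library: Ctnna3, Cacna1a, Ank, Prkg1, Baiap2l2 and Tmem163. Of all 3919 genes tested in these profiles 3.96% did so, and since the genes were chosen for such differences nothing is read from the count. The median log2 ratio of amyloid-DAM to myelin-DAM was 1.63 over the 10 genes and -0.03 over all genes tested, on the scale of log2(CPM + 10). Mamdc2 went the other way, with a mean that was higher in myelin-DAM.

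**Figure D1:**
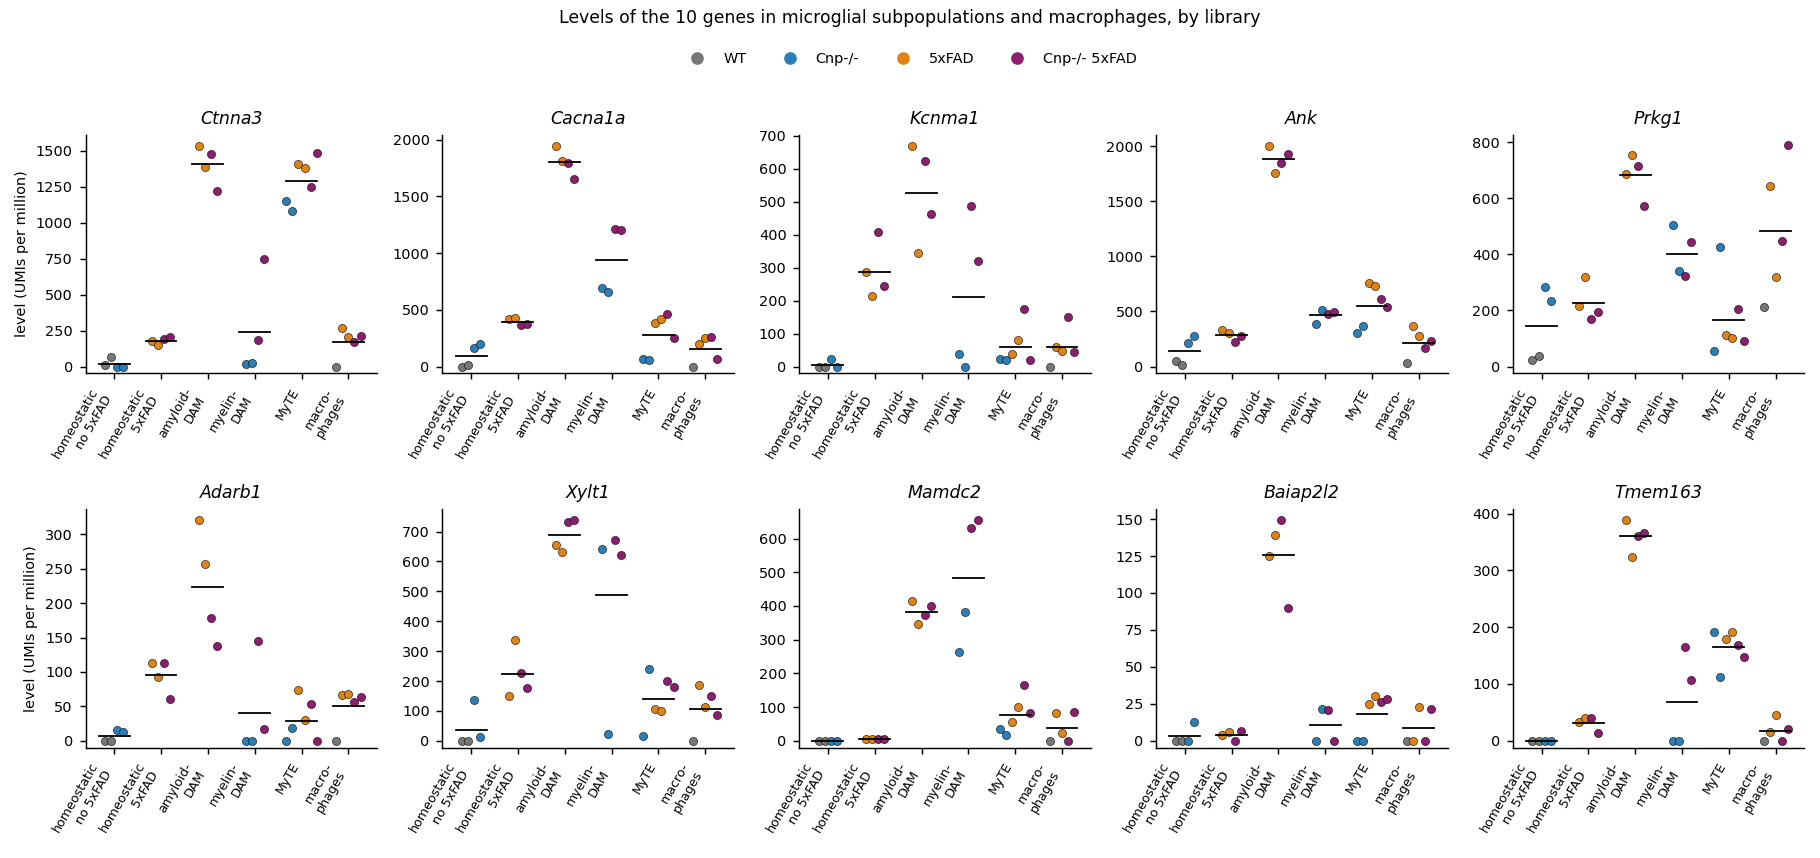
Level of each gene (CPM, y axis) in each library for 6 sets of nuclei (x axis). Each point is 1 library with at least 20 nuclei, coloured by genotype, and each line is the mean of the points. Ank, Baiap2l2 and Tmem163 stand apart in amyloid-DAM, Ctnna3 in MyTE overlaps that in amyloid-DAM, and in myelin-DAM the Cnp-/- 5xFAD libraries lie above the Cnp-/- libraries for Ctnna3, Kcnma1 and Tmem163.

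Ctnna3 encodes alpha-T-catenin, which ties cadherin adhesion complexes to actin. In amyloid-DAM it was at 1534 and 1384 CPM in the 5xFAD libraries and at 1478 and 1216 CPM in the Cnp-/- 5xFAD libraries, with a mean of 1403 ± 139 CPM (SD, n = 4). In myelin-DAM it was at 19.5 and 21.2 CPM in the Cnp-/- libraries and at 186 and 744 CPM in the Cnp-/- 5xFAD libraries. The 2 sets did not overlap, and within myelin-DAM the gene was low where 5xFAD was absent.

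Baiap2l2 encodes a protein of the I-BAR family, which bends membranes over actin. It was at 125 and 140 CPM in amyloid-DAM of 5xFAD and at 149 and 89.8 CPM in that of Cnp-/- 5xFAD, from 109 UMIs. In myelin-DAM it had 3 UMIs in all, and was at 0 in 2 of the 4 libraries. The ratio of the pooled levels was 13.02, with an exact binomial 95% interval of 4.34 to 64.1 that covers counting error only and is no test of the difference. Of the 566 amyloid-DAM nuclei, 93 held a UMI of it.

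Mamdc2 encodes a secreted protein of the extracellular matrix with MAM domains. It was at 414, 346, 374 and 401 CPM in amyloid-DAM, a mean of 384 ± 30.05 CPM (SD, n = 4). The myelin-DAM levels were 263 and 382 CPM for Cnp-/- and 632 and 655 CPM for Cnp-/- 5xFAD, a mean of 483 ± 192 CPM (SD, n = 4). The ranges overlapped, and in both Cnp-/- 5xFAD libraries the gene was higher in myelin-DAM than in amyloid-DAM, so its label as a gene favouring amyloid-DAM does not hold against myelin-DAM. In homeostatic microglia it had 4 UMIs with 5xFAD and 0 without.

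Cacna1a encodes the pore of the P/Q-type voltage-gated calcium channel, best known from nerve terminals. It was at 1948 and 1814 CPM in amyloid-DAM of 5xFAD and at 1793 and 1658 CPM in that of Cnp-/- 5xFAD. Myelin-DAM held it at 691 and 657 CPM without 5xFAD (Cnp-/-) and at 1212 and 1205 CPM with it. The levels thus formed 3 steps that did not overlap, lowest in myelin-DAM without 5xFAD and highest in amyloid-DAM. Of amyloid-DAM nuclei 84.5% held a UMI of Cacna1a, the largest share of the 10 genes.

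Kcnma1 encodes the pore of the BK potassium channel, which opens with calcium and voltage. It was at 671 and 346 CPM in amyloid-DAM of 5xFAD and at 623 and 463 CPM in that of Cnp-/- 5xFAD. Myelin-DAM of Cnp-/- held it at 38.9 and 0 CPM, and that of Cnp-/- 5xFAD at 487 and 319 CPM. The amyloid-DAM and myelin-DAM libraries overlapped because of the latter 2, and no Cnp-/- library came near them.

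Ank encodes a membrane protein that lets pyrophosphate and ATP leave the cell. It was at 2005, 1752.5, 1843 and 1927 CPM in amyloid-DAM, a mean of 1882 ± 109 CPM (SD, n = 4), and at 389, 509, 476 and 496 CPM in myelin-DAM, a mean of 468 ± 53.9 CPM (SD, n = 4). The sets lay far apart, and in myelin-DAM the libraries with 5xFAD lay within those without it. Ank thus differed between the DAM subpopulations also inside the Cnp-/- 5xFAD libraries, by a log2 ratio of 1.93 there against 1.99 over all.

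Tmem163 encodes a zinc transporter of vesicle and plasma membranes. It was at 389, 324, 361 and 366 CPM in amyloid-DAM. In myelin-DAM it was at 0 in both Cnp-/- libraries and at 166 and 106 CPM in the Cnp-/- 5xFAD libraries, from 22 UMIs. The sets did not overlap, and its pattern over the libraries was like that of Ctnna3.

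Prkg1 encodes the kinase that cyclic GMP switches on, a relaxing signal in smooth muscle. It was at 685, 753, 714 and 573 CPM in amyloid-DAM and at 506, 339, 321 and 443 CPM in myelin-DAM. The sets did not overlap, but the gap between the lowest amyloid-DAM and the highest myelin-DAM library was small beside the spread within each.

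Adarb1 encodes ADAR2, an enzyme that edits adenosine to inosine in RNA. It was at 321 and 257 CPM in amyloid-DAM of 5xFAD and at 179 and 138 CPM in that of Cnp-/- 5xFAD. In myelin-DAM it was at 0 in both Cnp-/- libraries and at 145 and 17.7 CPM in Cnp-/- 5xFAD, from 15 UMIs. One myelin-DAM library reached into the range of amyloid-DAM.

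Xylt1 encodes the xylosyltransferase that starts glycosaminoglycan chains on proteoglycans. It was at 656, 631, 731 and 739 CPM in amyloid-DAM. Its myelin-DAM levels were 642 and 21.2 CPM for Cnp-/- and 673 and 620 CPM for Cnp-/- 5xFAD. Except for Cnp-/- replicate 2, with 1 UMI, the myelin-DAM libraries lay at the level of amyloid-DAM.

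Inside the Cnp-/- 5xFAD libraries, where both DAM subpopulations share each library, the median log2 ratio of amyloid-DAM to myelin-DAM over the 10 genes was 0.81, less than the 1.63 over all libraries. It stayed above 1 for Baiap2l2 (2.67), Ank (1.93), Ctnna3 (1.51) and Tmem163 (1.36), was 0.88 for Adarb1, 0.74 for Prkg1, 0.51 for Cacna1a, 0.42 for Kcnma1 and 0.18 for Xylt1, and was -0.72 for Mamdc2. Within myelin-DAM, 6 of the 10 genes were higher in both Cnp-/- 5xFAD libraries than in both Cnp-/- libraries (Ctnna3, Cacna1a, Kcnma1, Adarb1, Mamdc2 and Tmem163), against 17.2% of all 3919 genes, in a comparison of 5xFAD that the choice of genes had used. Ank, Prkg1, Xylt1 and Baiap2l2 overlapped there.

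In the libraries with 5xFAD, homeostatic microglia held each of the 10 genes at a lower mean level than amyloid-DAM. They numbered 609 nuclei in the 4 libraries with 5xFAD and 373 in the 4 libraries without it. Of the 10 genes, 7 were higher in every library with 5xFAD than in any without it (Ctnna3, Cacna1a, Kcnma1, Adarb1, Xylt1, Mamdc2 and Tmem163), against 2.12% of the 4566 genes tested, and this too is a contrast the choice of genes had used. Only 7 of the 10 passed the filter on low counts, which Mamdc2, Baiap2l2 and Tmem163 did not, and of the 7 that passed, 5 were higher without overlap. Mamdc2 had 1 UMI in each library with 5xFAD.

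Kcnma1 showed the clearest split. It was at 288 and 215 CPM in homeostatic microglia of 5xFAD, at 408 and 243 CPM in those of Cnp-/- 5xFAD and at 24.3 CPM (3 UMIs, all in 1 nucleus) and 0 CPM in those of Cnp-/-. In both WT libraries it was at 0. Ctnna3 was at 174, 151, 193 and 203 CPM with 5xFAD, at 9.69 and 63.3 CPM in WT and at 0 in both Cnp-/- libraries. Tmem163 had 24 UMIs with 5xFAD and 0 in the libraries without it, where a count of 0 in 373 nuclei allows up to 0.804% of nuclei with a UMI.

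Cacna1a, Ank and Prkg1 were also present in homeostatic microglia of Cnp-/- mice without amyloid. Cacna1a was at 0 and 12.7 CPM for WT, at 162 and 198 CPM for Cnp-/- and at 363 to 429 CPM with 5xFAD. Ank was at 53.3 and 12.7 CPM for WT, at 211 and 272 CPM for Cnp-/- and at 227 to 328 CPM with 5xFAD. Prkg1 was at 24.2 and 38.0 CPM for WT, at 284 and 235 CPM for Cnp-/- and at 170 to 319 CPM with 5xFAD. For Prkg1 both Cnp-/- libraries lay within the range of the libraries with 5xFAD. For Ank, Cnp-/- replicate 2 lay within that range and replicate 1 just below it, and for both genes the WT libraries were lowest.

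Over all microglia without macrophages, 9 of the 10 genes were higher in every library with 5xFAD, against 3.56% of 8185 genes, the exception being Prkg1, whose Cnp-/- replicate 2 at 308 CPM lay above Cnp-/- 5xFAD replicate 2 at 305 CPM.

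MyTE microglia held Ctnna3 at levels that overlapped those of amyloid-DAM. Their mean level was 1377 ± 98.8 CPM (SD, n = 4) with 5xFAD and 1113 ± 49.5 CPM (SD, n = 2) in Cnp-/-, and the 14 MyTE nuclei of WT, too few for a profile of their own, were at 1184 and 1399 CPM. The mature oligodendrocyte markers Mbp, Mog, Mag, Mobp and St18 summed to 6868 to 7900 CPM in MyTE with 5xFAD and to 9840 and 8609 CPM in MyTE of Cnp-/-, against 96.7 to 224 CPM in amyloid-DAM, and mature oligodendrocytes themselves held Ctnna3 at 1811 to 2400 CPM. The part of oligodendrocyte RNA in the Ctnna3 of MyTE was not tested. Amyloid-DAM nuclei with a UMI of Ctnna3 had these markers at 236 CPM and those without at 141 CPM. This was not particular to Ctnna3. Every other member but Kcnma1 (184 and 187 CPM) gave the same direction, such as Adarb1 with 230 and 167 CPM, a gene nearly absent from mature oligodendrocytes.

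Ank and Tmem163 were also present in MyTE without 5xFAD. Ank was at 538 to 753 CPM with 5xFAD and at 304 and 372 CPM in Cnp-/-, and Tmem163 was at 147 to 191 CPM with 5xFAD and at 191 and 112 CPM in Cnp-/-. Cacna1a was at 251 to 466 CPM with 5xFAD against 67.6 and 55.8 CPM. In MyTE 5 of the 10 genes were higher in all 4 libraries with 5xFAD than in both Cnp-/- libraries (Ctnna3, Cacna1a, Ank, Mamdc2 and Baiap2l2), against 10.1% of 6687 genes. Baiap2l2 did not pass the filter on low counts there, which the other 9 did, and the choice of genes had used contrasts with 5xFAD. The oligodendrocyte markers given above were lower in all 4 of these libraries than in both Cnp-/- libraries, and their part in these counts was not tested.

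Macrophages, marked by Mrc1, Pf4, Cd163, F13a1, Lyve1 and Cbr2, were 133 nuclei with 5xFAD and 72 without. Prkg1 was the only one of the 10 genes whose levels in macrophages with 5xFAD reached those of amyloid-DAM, at 643, 320, 447 and 789 CPM. Ctnna3 was at 168 to 269 CPM in macrophages with 5xFAD, a range that held 3 of the 4 homeostatic levels with 5xFAD, and had 2 UMIs in macrophages without 5xFAD. The oligodendrocyte markers moved the same way in macrophages, with 114 to 1108 CPM with 5xFAD and at most 35.3 CPM without. Their part in the macrophage values, and that of RNA from other cells in the low levels of homeostatic microglia, was not tested. In homeostatic microglia the oligodendrocyte markers did not follow 5xFAD, with 134 to 186 CPM with it and 0 to 179 CPM without. Neuron markers had at most 2 UMIs in homeostatic microglia of either set.

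Amyloid-DAM held a larger share of the UMIs of each of the 10 genes than of all UMIs. Pooled over the 4 libraries with 5xFAD, it held 32.2% of all UMIs of microglia and macrophages but 82.6% of those of Baiap2l2, 67.6% of those of Ank, 66.7% of those of Tmem163 and 66.5% of those of Cacna1a. The lowest pooled shares were 53.0% for Ctnna3, with 35.6% in MyTE, 55.2% for Prkg1 and 57.0% for Kcnma1. In the library with the lowest share, amyloid-DAM held 37.4% of the UMIs of Ctnna3, 44.4% of Prkg1, 47.8% of Adarb1, 48.4% of Kcnma1 and 49.2% of Mamdc2, and the MyTE share of Ctnna3 reached 45.1%. For Mamdc2 the pooled share was 64.0%, with 19.8% in myelin-DAM, which held 6.36% of all UMIs.

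Within amyloid-DAM the share of nuclei with a UMI was taken for each gene, a share that also depends on how many UMIs the gene has. A UMI was found in 72.1% of nuclei for Ank, 54.2% for Xylt1, 47.2% for Prkg1, 44.2% for Kcnma1, 43.1% for Ctnna3, 32.2% for Tmem163, 26.3% for Mamdc2, 24.6% for Adarb1 and 16.4% for Baiap2l2, at a median of 1300.5 UMIs per nucleus (Wilson 95% interval of the Baiap2l2 share 13.6 to 19.7%). For comparison, macrophages with 5xFAD, at a median of 1826 UMIs, held a UMI of Cacna1a in 25.6% of nuclei and of Ctnna3 in 26.3%. They held Tmem163 in 3.76%, Baiap2l2 in 1.5% and Prkg1 in 58.6%. MyTE with 5xFAD, at the larger median of 2897 UMIs, held Ctnna3 in 83.6%, Ank in 72.9% and Tmem163 in 31.1%, shares that are not at equal depth. Astrocytes, at a median of 2636 UMIs, held Cacna1a in 6.01% and Ctnna3 in 6.88%. With each nucleus thinned to 700 UMIs the amyloid-DAM share was 69.4% for Cacna1a, 58.0% for Ank, 33.6% for Ctnna3 and 9.02% for Baiap2l2, and 37 shallower nuclei were left out. Thinned alike, MyTE with 5xFAD held Ctnna3 in 52.0%, above its share in amyloid-DAM, and Ank in 33.6%, below its share there. The share of Ctnna3 was thus not particular to amyloid-DAM. Tmem163 was then at 9.88% in these MyTE and 20.8% in amyloid-DAM, and Prkg1 at 30.7% in macrophages with 5xFAD and 31.6% in amyloid-DAM.

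Counted per nucleus at 700 UMIs, an amyloid-DAM nucleus held a UMI of 2.94 to 3.33 of the 10 genes on average, by library. A myelin-DAM nucleus held 1.24 and 1.09 in Cnp-/- and 2.17 and 2.39 in Cnp-/- 5xFAD. Homeostatic nuclei held 1.01 to 1.15 with 5xFAD, 0.440 and 0.452 in Cnp-/- and 0.0408 and 0.125 in WT. In amyloid-DAM 3.45% to 10% of nuclei held none of the genes, against 26.2% to 35.3% of homeostatic nuclei with 5xFAD and 62.6% to 95.9% of those without.

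**Figure D2:**
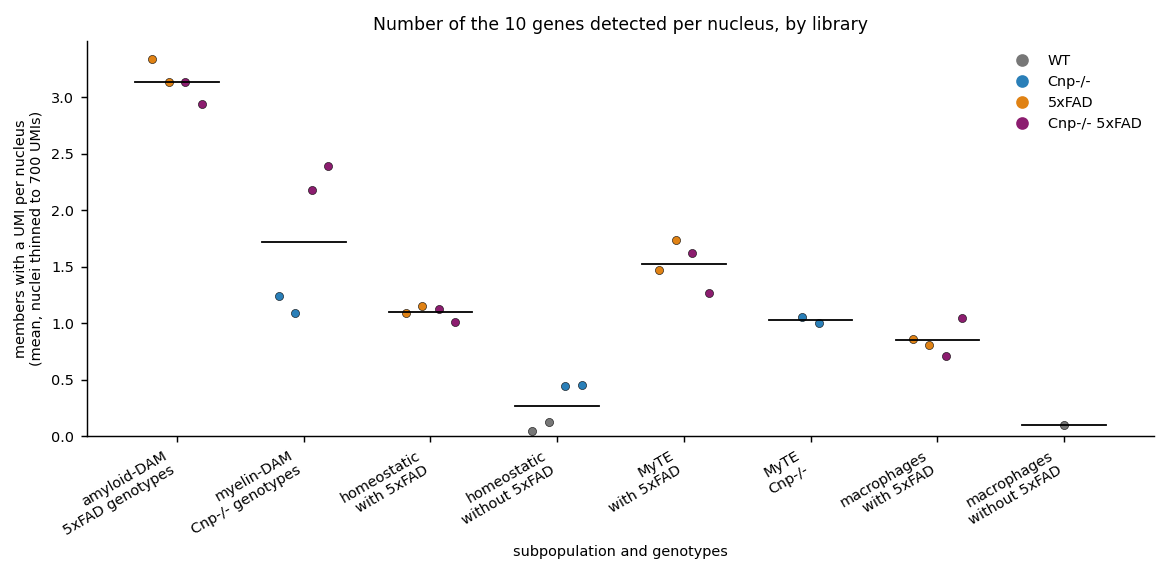
Mean number of the 10 genes with at least 1 UMI per nucleus (y axis), each nucleus thinned to 700 UMIs, by subpopulation and genotypes (x axis). Each point is 1 library with at least 20 nuclei, and each line is the mean of the points. Amyloid-DAM lies at 2.94 to 3.33, and both myelin-DAM and homeostatic microglia lie higher in libraries with 5xFAD.

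The 10 genes were compared between 5xFAD and Cnp-/- 5xFAD within amyloid-DAM. By edgeR's quasi-likelihood test with the filter on low counts, 0 of the 10 genes passed an adjusted p of 0.05, and neither did any of the 3919 genes tested (0%), of which 118 had an unadjusted p below 0.05. DESeq2 called 2 genes, neither of them a member, and edgeR with no filter called 7 higher and 3 lower, again no member. The log2 change from 5xFAD to Cnp-/- 5xFAD was 0.00 ± 0.13 for Ank (SE, 2 against 2 libraries), -0.12 ± 0.12 for Cacna1a, -0.10 ± 0.27 for Ctnna3, -0.13 ± 0.19 for Prkg1, 0.01 ± 0.20 for Mamdc2 and 0.02 ± 0.23 for Tmem163. The 95% interval of the difference was -0.28 to 0.29 for Ank and -0.38 to 0.14 for Cacna1a, and wider for the rest, such as -1.19 to 0.99 for Baiap2l2, -1.70 to 0.00498 for Adarb1 and -0.63 to 1.02 for Xylt1. At 2 libraries a group, these intervals leave room for changes of 1 or more on the log2 scale in these 3 genes. The astrocyte markers moved with this contrast, at 243 and 184 CPM in 5xFAD and 403 and 394 CPM in the Cnp-/- 5xFAD libraries, and their part in the values was not tested. The largest change was that of Adarb1, lower in both Cnp-/- 5xFAD libraries by -0.85 ± 0.39 (unadjusted p = 0.0511, adjusted p = 1.00 in the edgeR quasi-likelihood test).

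Homeostatic microglia gave 1 call. Cacna1a was higher with Cnp loss, averaged over the backgrounds with and without 5xFAD, by 2.59 ± 0.39 on the log2 scale (edgeR quasi-likelihood test, adjusted p = 0.0476). Of all 4566 genes 5 passed (0.11%), 3 of them higher (0.0657%) and 2 lower (0.0438%), with 246 at an unadjusted p below 0.05. The call rests on the libraries without 5xFAD, where WT held 0 and 1 UMIs and Cnp-/- held 20 and 16, so the size of the fitted change depends on the prior count. With 5xFAD the 2 Cnp-/- 5xFAD libraries, at 363 and 378 CPM, lay below the 5xFAD libraries, at 417 and 429 CPM. The summed astrocyte markers in homeostatic microglia were higher with Cnp loss in both backgrounds. They rose from 354 and 430 CPM in WT to 470 and 508 CPM in Cnp-/-, and from 320 and 302 CPM in 5xFAD to 363 and 405 CPM in the crossed libraries. Not all markers of the list took part. Aqp4 and Gfap had 0 UMIs in the libraries with 5xFAD, and Aqp4 and Gja1 had 0 in those without. The part of astrocyte RNA in this sum and in the Cacna1a values was not tested. The call was lost with the size factors of DESeq2 (adjusted p = 0.0509), by DESeq2 (0.0807) and without any 1 library other than WT replicate 2. Without WT replicate 1 the change was 1.76 (adjusted p = 0.305 in the edgeR quasi-likelihood test) and without WT replicate 2 it was 3.85 (0.0244). The adjusted p ranged from 1.43e-05 to 0.318 over the alternatives.

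Prkg1 and Ank had the same shape as Cacna1a without passing. Their averaged changes were 1.32 ± 0.29 (adjusted p = 0.381 in the edgeR quasi-likelihood test) and 1.11 ± 0.28 (adjusted p = 0.473). The fitted effect of Cnp loss with 5xFAD minus that without it was -5.53 ± 0.78 for Cacna1a, -3.68 ± 0.57 for Prkg1 and -2.84 ± 0.55 for Ank. This difference also sets libraries with 5xFAD against those without, which the choice of genes had used. It is therefore given as values without a test of the members, and 0 genes were called for it over the whole table. In all 3 genes both Cnp-/- libraries lay above both WT libraries, and both Cnp-/- 5xFAD libraries lay below both 5xFAD libraries. The other 4 genes tested in homeostatic microglia (Xylt1, Kcnma1, Adarb1 and Ctnna3) had averaged changes of 3.23, 2.32, 2.02 and -2.42, with standard errors of 0.90 to 1.01 and adjusted p of 0.633 or above. Their effects of Cnp loss with 5xFAD minus those without it were -6.93, -3.84, -4.46 and 5.43, with standard errors of 1.82 to 1.99. These 4 genes passed the filter through the libraries with 5xFAD. Without 5xFAD, Xylt1, Kcnma1 and Adarb1 had 0 UMIs in both WT libraries and Ctnna3 had 0 in both Cnp-/- libraries, so their fitted changes depend on the prior count too and are no measure of size.

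**Figure D3:**
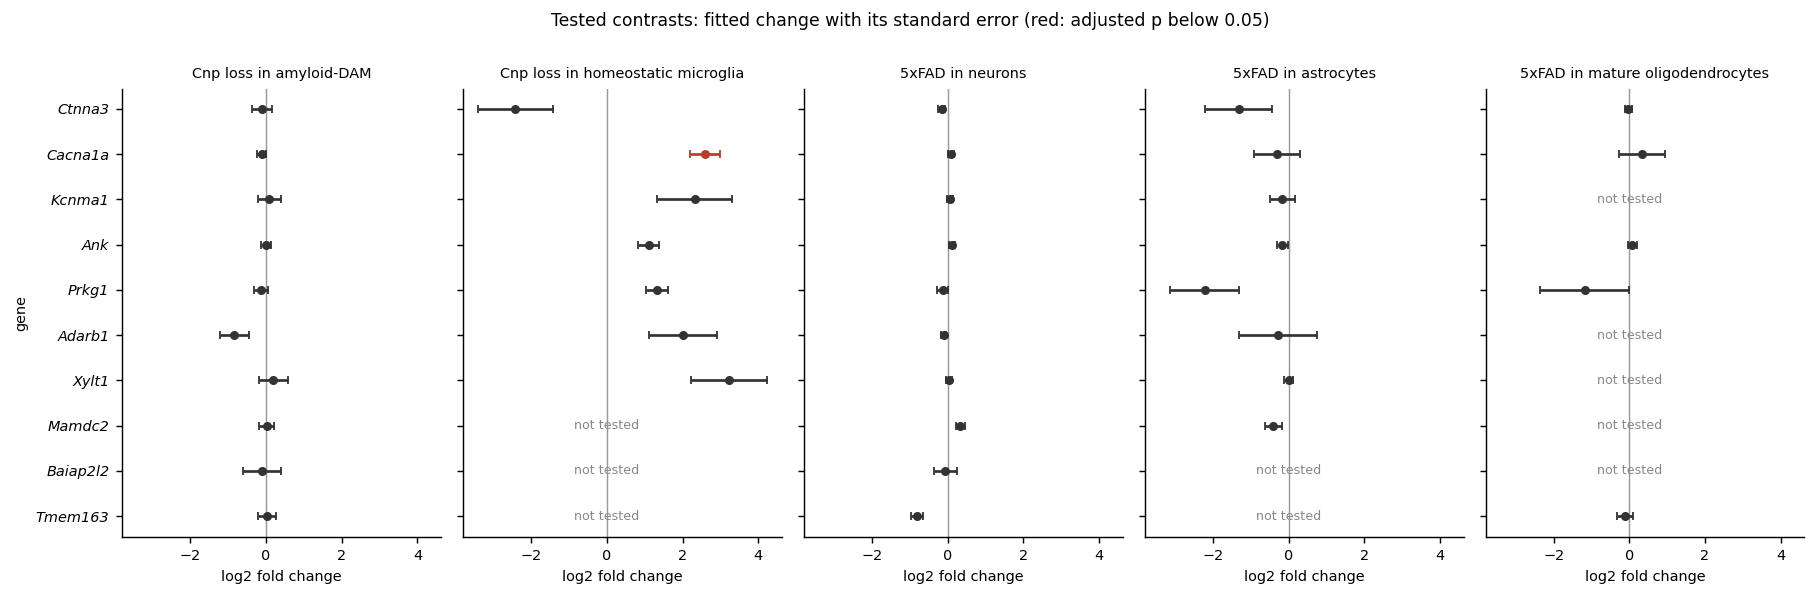
Fitted log2 fold change (x axis) of each gene (y axis) in the 5 contrasts that the choice of genes had not used. Points are the edgeR estimates and bars are standard errors, red marks an adjusted p below 0.05, and genes that did not pass the filter on low counts are marked as not tested. Only Cacna1a in homeostatic microglia passed. Among the amyloid-DAM estimates that of Adarb1 is farthest from 0, and among the neuron estimates that of Tmem163. Estimates in the other contrasts reach farther, such as 3.23 for Xylt1 in homeostatic microglia and -2.22 for Prkg1 in astrocytes.

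The 10 genes are not genes of microglia alone. Mamdc2 and Baiap2l2 came closest, being far higher in amyloid-DAM than in any class outside microglia. There Mamdc2 reached at most 48.2 CPM in any library and Baiap2l2 at most 22.9 CPM, in each case in pericytes with few UMIs. Ank was also highest in amyloid-DAM, at 1752.5 to 2005 CPM, followed by mature oligodendrocytes at 362 to 587 CPM, and by newly formed oligodendrocytes, neurons and astrocytes at means of 226, 217 and 199 CPM, which did not differ beyond their spread. Cacna1a at 1658 to 1948 CPM in amyloid-DAM was above its level in neurons, at 805 to 994 CPM, then came OPC at 482 to 661 CPM and newly formed oligodendrocytes at 250 to 379 CPM. Adarb1 had a mean of 224 ± 81.5 CPM (SD, n = 4) in amyloid-DAM and 138 ± 11.4 CPM (SD, n = 8) in neurons, and 1 amyloid-DAM library lay within the range of neurons. A level is a share of the UMIs of a class and no measure of UMIs per nucleus. Neurons held a median of 9105 UMIs per nucleus, against 1300.5 in amyloid-DAM. Without thinning, 96.0% of neurons held a UMI of Cacna1a and 66.9% one of Adarb1, against 84.5% and 24.6% of amyloid-DAM nuclei.

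The other 5 genes were higher elsewhere, or as high. Kcnma1 was highest in neurons at 1353 to 1603 CPM, then in OPC at 465 to 617 CPM and in amyloid-DAM at 346 to 671 CPM, which did not differ beyond their spread. Ctnna3 was highest in mature oligodendrocytes at 1811 to 2400 CPM, above amyloid-DAM at 1216 to 1534 CPM. Prkg1 was highest in pericytes at 3119 to 4517 CPM, then in endothelial cells at 1313 to 1570 CPM and OPC at 908 to 1281 CPM. Xylt1 was highest in OPC at 2341 to 3033 CPM and newly formed oligodendrocytes at 1155 to 1716 CPM. Tmem163 had means of 363 CPM in newly formed oligodendrocytes, 360 CPM in amyloid-DAM and 312 CPM in OPC, which overlapped.

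**Figure D4:**
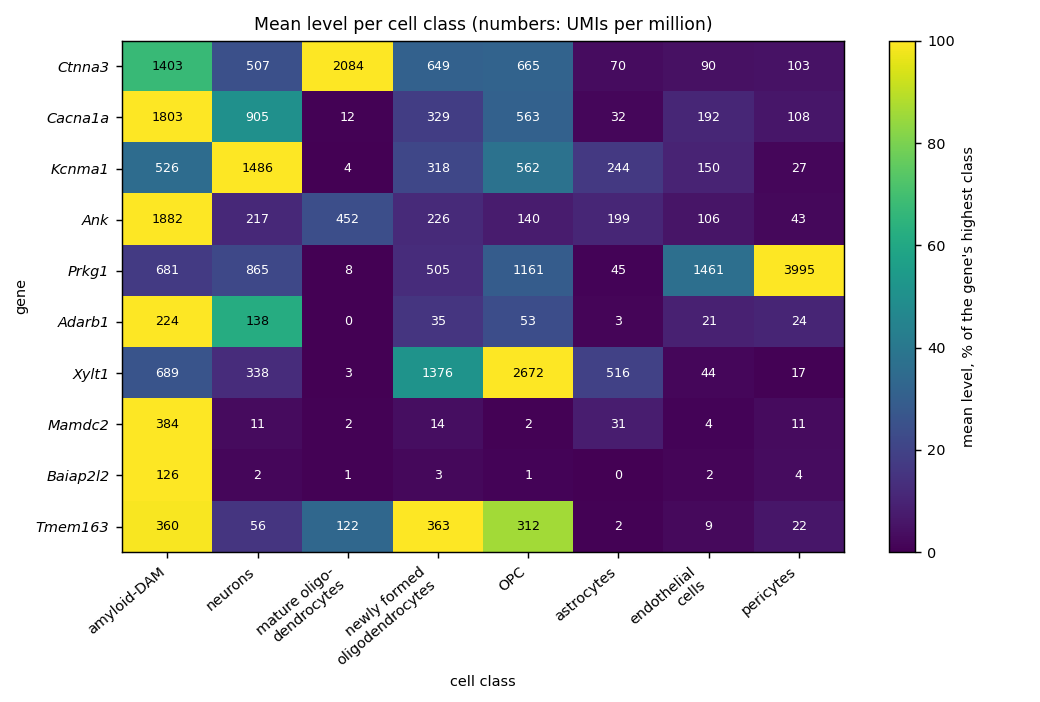
Mean level of each gene (rows) in amyloid-DAM of the 5xFAD genotypes (4 libraries) and in 7 other cell classes (8 libraries each). Numbers are CPM and colours give the share of the gene's highest class. Cacna1a, Ank, Adarb1, Mamdc2 and Baiap2l2 are highest in amyloid-DAM, and the other 5 genes are highest in another class.

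The effect of 5xFAD on these genes was then tested where the same genes are expressed by other cells. In neurons 0 of the 10 genes passed, and 0% of 21584 genes did by edgeR's quasi-likelihood test, with 2542 at an unadjusted p below 0.05 and 506 called by DESeq2. Cacna1a differed by 0.08 ± 0.08 on the log2 scale and Kcnma1 by 0.07 ± 0.08, with intervals of -0.12 to 0.27 and -0.11 to 0.25. Tmem163 differed by -0.81 ± 0.17 (adjusted p = 0.280 in the edgeR quasi-likelihood test), from 70.4, 106, 49.4 and 60.9 CPM without 5xFAD to 48.1, 40.2, 40.9 and 28.4 CPM with it. The lowest library without 5xFAD, at 49.4 CPM, lay just above the highest with it, at 48.1 CPM. All types of neuron were summed, and the part of their mix in these levels was not tested. DESeq2 gave Tmem163 an adjusted p of 0.000542. The direction was opposite to that in microglia, and the difference between the classes was not tested. Mamdc2 differed by 0.34 ± 0.13 (adjusted p = 0.387 by edgeR) at 7.7 to 12.4 CPM, and the remaining 6 genes by -0.16 to 0.11.

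Astrocytes and mature oligodendrocytes gave no call either, with 0% of 11809 and 0% of 8761 genes called by edgeR's quasi-likelihood test, 574 and 326 at an unadjusted p below 0.05, and 2 and 12 called by DESeq2. In astrocytes 8 of the 10 genes were tested. Prkg1 and Ctnna3 had the largest estimates, -2.22 ± 0.92 and -1.32 ± 0.88 (adjusted p = 0.974 for both in the edgeR quasi-likelihood test). WT replicate 2 stood apart there, with Ctnna3 at 402 CPM against 6.55 to 39.8 CPM in the other libraries and Prkg1 at 222 CPM against 6.37 to 56.3 CPM. Without that library the estimate was -0.90 for Prkg1 and 0.06 for Ctnna3. In mature oligodendrocytes 5 genes were tested, and Ctnna3 differed by -0.03 ± 0.09, with an interval of -0.25 to 0.19.

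Genes of like pattern were sought over 27 profiles of at least 20 nuclei, among 3945 genes with at least 200 UMIs. The profiles share libraries and differ in depth, and the members were picked for like differences between these profiles. The correlations are therefore descriptions, and nothing is read from those between members. Ctnna3 was most like Tmem163 (Pearson's r = 0.90), another member, and Acaca (0.80). Kcnma1 was most like Adarb1 (0.85) and Xylt1 (0.84), both members, and Ank was most like Acaca (0.89), which encodes acetyl-CoA carboxylase, and Cacna1a (0.87). Cacna1a itself was most like Ptchd1 (0.93) and Gnas (0.87), Mamdc2 like Myo1e (0.85) and Dkk2 (0.84), Xylt1 like Hpf1 (0.86) and Kcnma1, Adarb1 like Kcnma1 and Dusp3 (0.82) and Prkg1 like Bcl2 (0.81). Baiap2l2 had too few UMIs for this measure.

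The partners of these genes in channels, adhesion complexes and pathways were not called. Of 125 related genes in 10 lists, 54 were tested for 5xFAD in all microglia, and 0 of them passed by edgeR's quasi-likelihood test, against 0.391% of 8185 genes (0.379% higher and 0.0122% lower). At an unadjusted p below 0.05 were 833 of the 8185 genes, 596 of them higher, and 8 of the 54 related genes, a share that is read as no result about them. Each of the 8 was higher: the catenin Jup (1.51 ± 0.59), the calcium channel pore Cacna1d (0.42 ± 0.13), the cyclic nucleotide phosphodiesterase Pde1c (0.83 ± 0.36), the heparan sulfate polymerase Ext1 (0.52 ± 0.21), the phosphate transporter Slc20a2 (0.79 ± 0.27), the receptors Nrp1 (0.67 ± 0.16) and Nrp2 (0.80 ± 0.22), and the zinc importer Slc39a14 (3.59 ± 1.54), with adjusted p of 0.119 to 0.472. These sums pool the microglial subpopulations, and amyloid-DAM held 184 and 127 nuclei in the 5xFAD libraries but 1 and 0 in WT. The part of this mix in the changes was not tested. Of the potassium channel list 3 of 17 genes could be tested and of the calcium channel list 4 of 17, and the rest did not pass the filter on low counts.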

How the data were processed

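Single-nucleus RNA-seq libraries were prepared by the study from 8 brain hemisphere samples, 2 per genotype. Per the submitters' processing notes, reads were processed with Cell Ranger 6.1.2 on mm10. The authors removed ambient RNA with CellBender and clustered nuclei with Seurat, and the deposited tables hold raw UMI counts per gene and nucleus with their cell type annotation. Whether intronic reads were counted, and how doublets were handled in the mouse data, is not given in the sources used here.

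From the deposited counts, UMIs were summed per library and cell class or microglial subpopulation, and sums of at least 20 nuclei were kept. Levels are UMIs per 1000000 UMIs (CPM) of a sum, ratios are log2(CPM + 10), and shares were also taken as the share expected with each nucleus thinned to 700 UMIs (genes per nucleus by 1 random draw). Intervals of shares and of the pooled ratio and floors (3 counts) cover counting error only, whereas intervals of log2 changes come from edgeR's SE and degrees of freedom (all 95%). Tests used edgeR 4.0.16 in R 4.3.3 (TMM, filterByExpr, quasi-likelihood test, Benjamini-Hochberg adjustment over all genes, threshold 0.05). The fit for amyloid-DAM held the 8 amyloid-DAM and myelin-DAM sums, in which both Cnp-/- 5xFAD libraries enter with 2 sums each, treated as independent, and the other fits held all 8 libraries. The script was tested on simulated data with 200 changed genes. Alternatives were DESeq2 1.42.0 or its size factors, no filter, a replicate block, nuclei with at least 1000 UMIs and leaving out each library in turn. Gene positions are from GENCODE M21 and promoters from RefSeq, both GRCm38.

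The 10 genes, the related genes and the markers were chosen with earlier results of these data known, and all 10 are described. One marker each of microglia and of mature oligodendrocytes is not reported here and was left out of the summed levels. Related genes are named at an unadjusted p below 0.05 in all microglia, a limit chosen after their values were seen. The 2 genes most like each member are named where Pearson's r was at least 0.8.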

Additional observations from a re-analysis of the deposited data

Results flagged for a closer look

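Adarb1 in myelin-DAM of Cnp-/- 5xFAD replicate 1, at 145 CPM, lay far above the other 3 myelin-DAM libraries, at 0, 0 and 17.7 CPM, with a gap of 0.878 of the whole range. Xylt1 in myelin-DAM of Cnp-/- replicate 2, at 21.2 CPM, lay far below the other 3, at 620 to 673 CPM, with a gap of 0.918 of the range. Of 20 sets of 4 libraries examined these 2 stood out. The rule flags about 1 in 20 by chance where all 4 libraries of a set are alike. Each set here joined 2 genotypes, so that rate does not apply and nothing is read from the number flagged. The median log2 ratio of amyloid-DAM to myelin-DAM over the 10 genes was 1.37 to 1.98 without any 1 library.

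The annotation of all nuclei held 181 further nuclei labelled as microglia that were not in the microglia table, with a median of 3880 UMIs. In them the 10 genes summed to 3566 CPM in the 94 nuclei with 5xFAD and to 2383 CPM in the 87 nuclei without it. Prkg1 was at 947 and 829.3 CPM and Kcnma1 at 384 and 128 CPM. The microglia markers were at 1295 CPM in the nuclei with 5xFAD and 1312 CPM in those without. Both lay below the lowest microglial sum kept, at 2083 CPM in MyTE of Cnp-/-. These nuclei also held neuron markers at 588 and 901 CPM and mature oligodendrocyte markers at 3120 and 3470 CPM. The part of RNA from other cells in the values was not tested.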

How the results depend on the processing

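Numbers of genes called over the whole table moved most with the tool and the filter, and the cause was not tested. With no filter, 7 genes were higher and 3 lower with Cnp loss in amyloid-DAM, 14 and 13 in homeostatic microglia, and with 5xFAD 209 and 143 in astrocytes, 10 and 27 in mature oligodendrocytes and 231 and 33 in all microglia. By DESeq2 the counts were 1 and 1 in amyloid-DAM, 152 and 354 in neurons, 1 and 1 in astrocytes, 8 and 4 in mature oligodendrocytes and 98 and 28 in all microglia. Genes lower in homeostatic microglia numbered 1 in nuclei with at least 1000 UMIs, and genes lower in all microglia numbered 2 with the size factors of DESeq2 and 3 without MyTE nuclei. Leaving out each library in turn gave 0 to 1 higher and 0 to 1 lower in amyloid-DAM, 0 to 6 and 0 to 3 in homeostatic microglia, 0 to 2 and 0 to 2 in neurons and 19 to 46 and 0 to 2 in all microglia, with 46 without WT replicate 2.

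The replicate numbers did not pair the libraries, with correlations of the deviations of -0.20 to 0.46, so they share only a number. The exception is in the amyloid-DAM fit, where the amyloid-DAM and myelin-DAM sums of a Cnp-/- 5xFAD library share that library and gave the 0.46. With only the amyloid-DAM profiles, 0 genes were higher and 0 lower. The replicate block gave 0 higher and 0 lower genes in homeostatic microglia, against 3 and 2, and the Cacna1a change there was 2.58 (adjusted p = 0.119 by edgeR). It changed no other member's call.

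Without the filter Xylt1 in homeostatic microglia passed (3.21, adjusted p = 0.0140 by edgeR), and so did Ctnna3 and Prkg1 in astrocytes (-1.31 and -2.22, adjusted p = 4.36e-08 and 2.28e-18), where WT replicate 2 stands apart. Uncalled estimates near 0 changed sign: Prkg1 in amyloid-DAM was 0.00525 and Ctnna3 in mature oligodendrocytes 0.00112 in nuclei with at least 1000 UMIs, and Xylt1 in astrocytes was 0.00141 with the size factors of DESeq2, 0.00436 with no filter, 0.00115 by DESeq2 and 0.00272 in nuclei with at least 1000 UMIs. Leaving out each library in turn, the log2 changes in amyloid-DAM ran from -0.10 to 0.17 for Tmem163, -0.29 to 0.67 for Kcnma1, -0.0919 to 0.11 for Ank, -0.10 to 0.16 for Mamdc2, -0.31 to 0.0384 for Ctnna3, -0.60 to 0.20 for Baiap2l2 and -0.37 to 0.0181 for Prkg1. In neurons they ran from -0.29 to 0.26 for Baiap2l2, -0.27 to 0.0213 for Prkg1 and -0.0239 to 0.0729 for Xylt1. In astrocytes they ran from -0.0927 to 0.11 for Xylt1, -1.14 to 0.14 for Cacna1a, -1.77 to 0.0617 for Ctnna3, -1.14 to 0.69 for Adarb1 and -0.64 to 0.12 for Kcnma1. In mature oligodendrocytes they ran from -0.28 to 0.11 for Tmem163, -2.30 to 0.69 for Prkg1, -0.0813 to 0.0267 for Ctnna3 and -0.0346 to 0.18 for Ank. The alternatives for homeostatic levels and for numbers of genes without overlap under left-out libraries were chosen after seeing the data. With 2 libraries per genotype and at most 280351 UMIs per DAM sum, genes of few UMIs such as Baiap2l2 carry wide errors.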
